A study of Arabidopsis thaliana with 4 samples.

Results

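RNA polymerase II (RNA Pol II) is itself built from the products of genes that it transcribes, and RNA Pol II occupancy was examined here on the genes of 5 of its core subunits, *NRPB1* (AT4G35800), *NRPB2* (AT4G21710), *NRPB3* (AT2G15430), *NRPB4* (AT5G09920) and *NRPB5* (AT3G22320). They were taken by their TAIR10 locus identifiers and are 5 of 27444 nuclear protein-coding genes. The data are a ChIP-seq experiment on leaves of 21-day-old *Arabidopsis thaliana* plants, in which the DNA recovered with an antibody is sequenced beside input DNA that did not pass the antibody step. WT (Col-0) plants were compared with *hyl1-2* plants, which are knock-out mutants of *HYL1*, the gene of a double-stranded RNA-binding protein of miRNA biogenesis, and both were grown on soil in long days. The antibody (Abcam ab817, clone 8WG16) is directed against the heptad repeat of the C-terminal domain (CTD) of NRPB1 and was used as an antibody against total RNA Pol II. Each genotype is represented by 1 input and 1 ChIP library, so no difference between genotypes has a replicate check, and genotype and library cannot be told apart.

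RNA Pol II carries the transcription of protein-coding and *MIR* genes. Its largest subunits form the catalytic centre and the cleft that holds the DNA, NRPB1 also carrying the CTD that recruits capping, splicing and termination factors, while smaller subunits assemble the enzyme, help it to open promoters or bind the emerging transcript. In plants, RNA Pol IV and V, which act in RNA-directed DNA methylation, are descended from RNA Pol II, have largest subunits of their own and share several small subunits with it.

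The 4 libraries held between 17734005 reads (WT input) and 37717174 reads (WT ChIP). No read of either *hyl1-2* library covered a 20 bp gap in *HYL1* at chr1:3139497-3139516, where 12 reads of WT input and 26 of WT ChIP lay. The gap was found by a search of *HYL1* in these same reads for bases that no read of a library spanned. The labels name the genotype but give no insertion site. The ChIP libraries nevertheless held more RNA Pol II on *HYL1* in *hyl1-2* (ChIP over input 3.79) than in WT (1.19), a whole-gene fold change of 3.19 (95% counting interval 2.75 to 3.71). The tissue label was checked by RNA Pol II on marker genes, as ChIP over input across the whole gene. In *hyl1-2*, 5 leaf markers, among them *RBCS1A* and *LHCB1.3*, had values between 1.09 and 5.38, above or near the 3 seed storage genes (0.992 to 1.19). In WT, the leaf markers reached only 0.626 to 1.34, whereas the seed storage genes *CRA1*, *CRU3* and *SESA1*, which are not expressed in leaves, stood at 1.61 to 2.31 and both root hair markers at 1.37 and 1.5. The flower markers *AP1* (0.882) and *AG* (0.551) lay within or below the range of the leaf markers. On the seed and root hair markers, though not on the flower markers, the WT ChIP library goes against its leaf label, and the part of this in the values below, all of which are relative to WT, was not tested. In chromatin from whole leaves, a change in the cell types present and a change per cell cannot be told apart.

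The promoters of 4 of the genes are shown first, because the promoter is where the fold change was above 1.2 for every subunit gene. It was also above 1.2 in 58.6% of the 26437 protein-coding promoters tested. *NRPB2*, at 1.41 (0.877 to 2.26), did not differ between genotypes beyond counting error. Each sequence runs 5′ to 3′ from 250 bases before to 50 bases after the annotated 5′ end (TAIR10.1 reference of RefSeq, strand of the gene). The capitals mark exact matches, on either strand, to TGGGCC and TGGGCT, known as site II elements of growth-related plant promoters, and to the TATA box TATAAA.
*NRPB1*, chr4:16968079-16968378, minus strand: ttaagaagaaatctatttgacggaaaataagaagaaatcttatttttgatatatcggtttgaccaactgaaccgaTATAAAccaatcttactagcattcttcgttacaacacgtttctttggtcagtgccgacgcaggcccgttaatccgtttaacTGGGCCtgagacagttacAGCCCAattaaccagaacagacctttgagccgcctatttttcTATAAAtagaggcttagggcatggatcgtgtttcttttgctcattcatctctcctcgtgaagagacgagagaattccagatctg
*NRPB2*, chr4:11542356-11542655, minus strand: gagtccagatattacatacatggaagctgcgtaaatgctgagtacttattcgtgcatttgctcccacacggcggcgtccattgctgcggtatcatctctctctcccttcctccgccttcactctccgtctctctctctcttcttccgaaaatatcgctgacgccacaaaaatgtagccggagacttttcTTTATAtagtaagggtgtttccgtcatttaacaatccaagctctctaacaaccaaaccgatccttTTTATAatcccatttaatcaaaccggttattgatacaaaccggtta
*NRPB4*, chr5:3095933-3096232, plus strand: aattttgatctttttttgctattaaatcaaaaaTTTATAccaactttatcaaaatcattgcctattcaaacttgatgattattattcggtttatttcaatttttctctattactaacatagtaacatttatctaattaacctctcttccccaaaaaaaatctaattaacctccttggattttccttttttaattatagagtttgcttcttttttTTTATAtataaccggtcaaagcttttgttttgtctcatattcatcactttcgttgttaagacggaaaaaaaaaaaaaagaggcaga
*NRPB5*, chr3:7892300-7892599, minus strand: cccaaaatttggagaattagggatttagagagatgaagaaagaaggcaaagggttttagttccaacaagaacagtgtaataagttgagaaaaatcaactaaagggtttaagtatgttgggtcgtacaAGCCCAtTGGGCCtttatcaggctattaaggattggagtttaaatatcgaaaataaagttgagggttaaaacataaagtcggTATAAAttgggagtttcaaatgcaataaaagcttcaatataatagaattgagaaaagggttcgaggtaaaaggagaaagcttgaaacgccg

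A match is a description of the letters and not a binding site. TATAAA was present on either strand in all 4 sequences and in 52.1% of 27443 promoters of the same length. On the strand of the gene it started at positions -175 and -34 in *NRPB1* and -41 in *NRPB5*, counted from the 5′ end. In *NRPB2* (-61 and 4) and *NRPB4* (-217 and -36) the matches lay on the opposite strand only. TGGGCC was found in *NRPB1* and *NRPB5*, and in 15.5% of all promoters. TGGGCT was found in the same genes, and in 14.2% of all promoters. *NRPB2* and *NRPB4* had neither of them, and AAACCCTA, the telo box of many genes of the translation machinery, which 6.22% of promoters hold, was in none of the 4. The promoters also differed in base composition. In the 200 bp upstream of the 5′ end, GC content was 44.5% for *NRPB1*, 48.5% for *NRPB2*, 27.5% for *NRPB3*, 26% for *NRPB4* and 33.5% for *NRPB5*.

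RNA Pol II occupancy was first compared in the promoter, 200 bp that end at the annotated gene start. Reads that overlapped the window were scaled to the total of their library (RPM), the RPM of each genotype's ChIP was set over that of its input, and the fold change is this quotient in *hyl1-2* over the quotient in WT, with a 95% interval from the 4 read counts that covers counting error only. Since the reads carry no molecular identifiers, they need not be independent molecules. A fold change above 1.2 was counted as higher and one below 0.8 as lower.

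All 5 promoters had a higher ChIP over input in *hyl1-2* than in WT, with fold changes from 1.41 to 3.56 and a median of 2.25. The same was true of 58.6% of the 26437 protein-coding promoters with at least 10 reads in each library, whose median was 1.33, so most promoters lay on this side. None of the 5 was below 0.8, where 11.7% of all promoters lay. The interval was above 1 for 4 of the 5 genes, against 30.8% of all promoters, but for 1 of the 4, *NRPB4*, it stayed above 1 in only 3 of 9 alternative settings.

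*NRPB1* encodes the largest subunit, which carries the CTD that the antibody recognizes. The gene is read from the minus strand (chr4:16960558-16968128), is 7571 bp long and has 14 exons. Its promoter (chr4:16968129-16968328) held 49 input reads in WT and 75 in *hyl1-2*, and 67 ChIP reads in WT against 229 in *hyl1-2*. Scaled to library totals, the inputs had 2.76 RPM in WT and 3.29 in *hyl1-2*. WT ChIP lay below both, at 1.78, and *hyl1-2* ChIP above both, at 7.55. ChIP over input was 0.643 in WT (95% interval 0.445 to 0.929) and 2.29 in *hyl1-2* (1.77 to 2.97), which gave a fold change of 3.56 (2.27 to 5.60). That fold change was higher than those of 94.9% of all promoters, and the *hyl1-2* level was higher than those of 98.4%. The whole interval of *NRPB1* was above 1 in *hyl1-2*, where the median of all promoters was 0.722. In WT, where that median was 0.521, its whole interval was below 1. The value 1 is set by the scaling to total reads and is not a background level. The median 200 bp intergenic window, at least 1000 bp from a gene, had 2.99 RPM in WT input and 1.48 in WT ChIP. In *hyl1-2* it had 2.90 in input and 1.62 in ChIP.

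*NRPB2* encodes the second largest subunit, which with NRPB1 forms the active centre. It is on the same chromosome and strand (chr4:11535404-11542405), with a length of 7002 bp and 25 exons. Its promoter held 59 and 62 reads in the WT and *hyl1-2* inputs, and 82 and 76 reads in the ChIP libraries. ChIP over input was 0.653 in WT (0.468 to 0.913) and 0.92 in *hyl1-2* (0.658 to 1.29), and the fold change of 1.41 (0.877 to 2.26) was within counting error of 1 and close to the median promoter. In ChIP reads alone, without division by input, it was 1.15 (0.843 to 1.57), and with reads counted by their midpoints 2.14 (1.06 to 4.33). Of this window, 176 bp lie inside AT4G21720, annotated as a defensin-like protein, which starts 24 bp away on the other strand, so that the reads cannot be assigned to one of the genes.

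*NRPB3* encodes the subunit that forms, with NRPB11, the platform on which the enzyme is assembled, and its product is also used by RNA Pol IV and V. The gene lies on the plus strand (chr2:6733534-6735819, 2286 bp) with no neighbour within 1000 bp. Its promoter held 66 input reads in WT and 49 in *hyl1-2*, with 38 and 50 ChIP reads. ChIP over input was 0.271 (0.182 to 0.403) in WT and 0.766 (0.516 to 1.14) in *hyl1-2*, a fold change of 2.83 (1.61 to 4.96). Part of this difference lay in the inputs, whose own ratio of *hyl1-2* to WT was 0.578 (0.40 to 0.837), and the ChIP libraries alone gave 1.64 (1.07 to 2.49). Shifted to the window from 300 to 100 bp upstream, the fold change was 1.62 (0.993 to 2.65). In this window 3.94% of reads had a mapping quality of 0, meaning several places in the genome, and for the other 4 genes there were none. A near copy, *NRPE3B* (AT2G15400), lies on the same chromosome.

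*NRPB4* encodes a subunit that forms a stalk on the enzyme with NRPB7. It lies on the plus strand (chr5:3096183-3097837, 1655 bp, 6 exons). Its promoter held few ChIP reads in both genotypes, 17 ChIP reads in WT and 24 in *hyl1-2* against 55 and 57 in the inputs. ChIP over input was 0.145 (0.0844 to 0.250) in WT and 0.316 (0.196 to 0.509) in *hyl1-2*. These levels were higher than those of only 3.55% and 4.51% of promoters. The fold change was 2.17, and with so few reads its interval reached from 1.05 to 4.48.

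*NRPB5* encodes a subunit at the entry of the DNA channel that RNA Pol I, II, III and IV share. It lies on the minus strand (chr3:7890803-7892349, 1547 bp, 5 exons). Its promoter held 52 and 80 reads in the inputs, with 35 ChIP reads in WT and 76 in *hyl1-2*. ChIP over input was 0.316 (0.206 to 0.486) in WT and 0.713 (0.521 to 0.976) in *hyl1-2*, a fold change of 2.25 (1.32 to 3.83). The difference lay in the ChIP libraries, since the input ratio was 1.2 (0.845 to 1.70). The first 42 bp of *PMH2* (AT3G22330), a mitochondrial RNA helicase gene on the other strand, lie in this window. The promoter of *PMH2* had a fold change of 2.13 (1.26 to 3.62). It is not a separate observation, since the 158 bp between the genes lie in both promoter windows and share their reads.

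**Figure D1:**
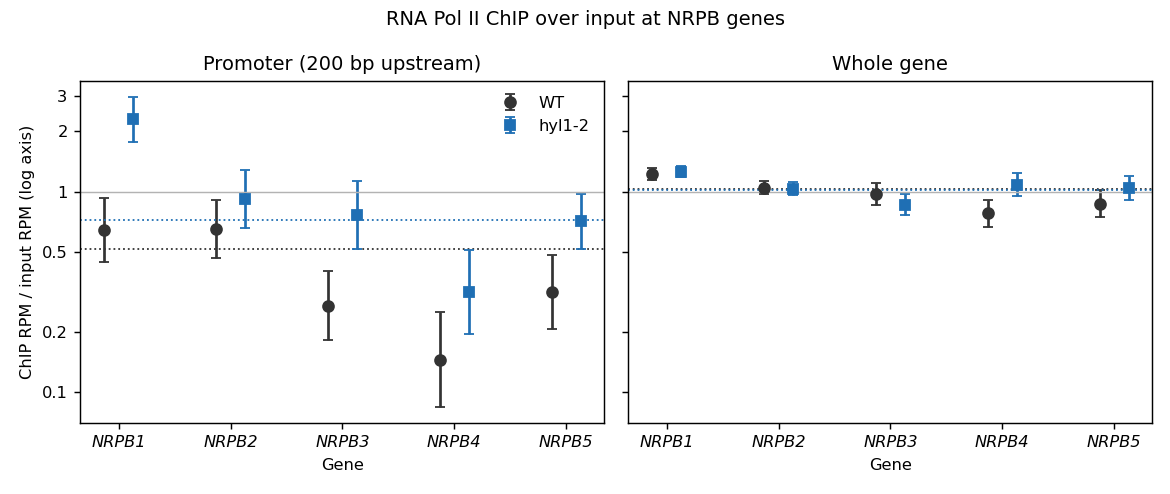
RNA Pol II ChIP over input (RPM over RPM, log axis) in the promoter (left) and over the whole gene (right) of the 5 genes, for WT (circles) and *hyl1-2* (squares), with 95% counting intervals as bars and dotted lines for the median of protein-coding genes in each genotype. In promoters the *hyl1-2* point is above the WT point for all 5 genes, with *NRPB1* at 2.29 against 0.643, while over whole genes the points lie between 0.781 and 1.26.

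The order of the genes by promoter level was not the same in both genotypes. In WT, *NRPB2* and *NRPB1* did not differ beyond counting error (ratio 1.02, 0.618 to 1.67), *NRPB1* was 2.03 times *NRPB5* (1.15 to 3.57), and neither *NRPB5* and *NRPB3* nor *NRPB3* and *NRPB4* differed beyond it. In *hyl1-2*, *NRPB1* was 2.49 times *NRPB2* (1.63 to 3.81). *NRPB2*, *NRPB3* and *NRPB5* followed without differing beyond their intervals from one to the next, and *NRPB5* was 2.26 times *NRPB4* (1.27 to 3.99).

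Over whole genes the difference seen in promoters was smaller, and only *NRPB4* exceeded 1.2. *NRPB1* held 1103 and 1530 reads in the WT and *hyl1-2* inputs, and 2858 and 2566 in the ChIP libraries. Its ChIP over input was 1.22 in WT (1.14 to 1.31) and 1.26 in *hyl1-2* (1.18 to 1.34), a fold change of 1.03 (0.940 to 1.14). *NRPB2* held 1115 and 1380 reads in the inputs and 2484 and 1905 in the ChIP libraries, and its fold change was 0.99 (0.896 to 1.09). For both large subunits the genotypes thus lay close to each other, with the narrowest intervals of the 5 genes.

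*NRPB3* held 388 and 490 input reads and 803 and 562 ChIP reads in WT and *hyl1-2*, with ChIP over input of 0.973 in WT and 0.861 in *hyl1-2* and a fold change of 0.88 (0.745 to 1.05). *NRPB4* held 265 and 367 input reads and 440 and 529 ChIP reads, with 0.781 (0.670 to 0.909) in WT and 1.08 (0.947 to 1.24) in *hyl1-2*. Its fold change was 1.39 (1.13 to 1.70), higher than that of 82.4% of genes. *NRPB5* held 249 and 343 input reads and 462 and 477 ChIP reads, with 0.872 in WT and 1.04 in *hyl1-2* and a fold change of 1.2 (0.972 to 1.47), which before rounding was just under the limit of 1.2. *NRPB4* was therefore the 1 gene of the 5 counted as higher, where 25.9% of 27441 genes were, and 0 were lower, where 21.4% were. It was also the 1 gene whose interval was above 1, against 25.2% of genes, and the median of all genes was 0.958. The 3′ end of *NRPB4* overlaps *ABCF2* (AT5G09930) on the other strand by 283 bp, and *ABCF2* as a whole had a fold change of 0.88 (0.756 to 1.02).

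**Figure D2:**
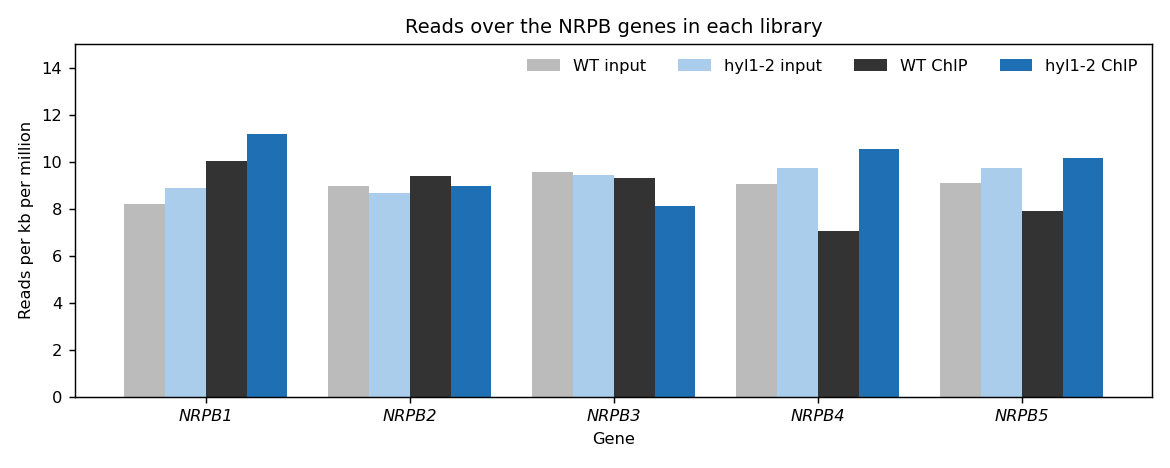
RPKM (reads per kb of gene, scaled to the library total) over the 5 genes, as a bar for each of the 4 libraries. The input bars lie between 8.22 and 9.74 for all genes, and the ChIP bars between 7.05 (*NRPB4* in WT) and 11.2 (*NRPB1* in *hyl1-2*).

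Compared per length, the genes were covered much alike. Input RPKM lay between 8.22 and 9.74 and ChIP RPKM between 7.05 and 11.2. By ChIP over input, *NRPB1* was highest in both genotypes, 1.16 times the next gene in each, which was *NRPB2* in WT (1.05 to 1.28) and *NRPB4* in *hyl1-2* (1.00 to 1.35). In WT no other neighbours in the order differed beyond counting error, and in *hyl1-2* *NRPB3* was last, with *NRPB2* at 1.2 times its value (1.05 to 1.38).

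The fold change differed between windows along the genes. In the first 200 bp, 4 of 5 genes were above 1.2, against 48.4% of all genes, at fold changes of 2.90 (1.92 to 4.38) for *NRPB1*, 1.81 (1.13 to 2.89) for *NRPB2*, 1.63 (0.974 to 2.72) for *NRPB3*, 1.23 (0.760 to 1.99) for *NRPB5* and 1.17 (0.704 to 1.96) for *NRPB4*. From 200 to 1000 bp, 4 of 5 genes were again above 1.2, against 30.3% of all genes, at 1.98 (1.54 to 2.55) for *NRPB1*, 1.60 (1.21 to 2.11) for *NRPB4*, 1.44 (1.10 to 1.90) for *NRPB2* and 1.21 (0.921 to 1.60) for *NRPB5*, with *NRPB3* at 0.82 (0.624 to 1.08). That window is set by distance and takes in only the start of the long genes. Over the whole stretch from 200 bp to the 3′ end, 1 gene, *NRPB4*, was above 1.2 (1.38, 1.12 to 1.71) and 0 were below 0.8, against 24.6% and 23.2% of all genes. *NRPB1* and *NRPB2* were there at 0.99 (0.903 to 1.09) and 0.98 (0.886 to 1.08), *NRPB3* at 0.85 (0.711 to 1.01) and *NRPB5* at 1.2 (0.965 to 1.49).

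**Figure D3:**
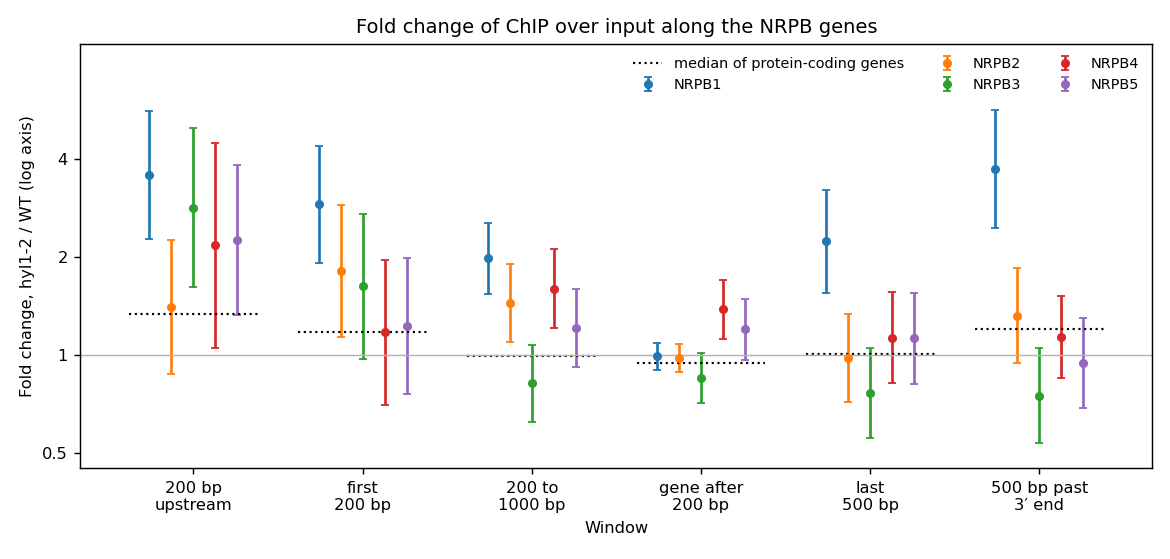
Fold change of ChIP over input, *hyl1-2* over WT (log axis), in 6 windows along each gene, with 95% counting intervals as bars and a dotted line for the median of protein-coding genes in each window. *NRPB1* is at 3.56 in the promoter, 0.99 in the gene after its first 200 bp and 3.72 past the 3′ end, and the other 4 genes stay within 0.75 and 1.60 in the last 4 windows.

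The contrast between promoter and gene can be given within each library pair, where the scaling of the libraries cancels. The promoter fold change was 3.59 times that of the rest of the gene for *NRPB1* (2.26 to 5.69), 3.33 times for *NRPB3* (1.85 to 6.0) and 1.88 times for *NRPB5* (1.06 to 3.33). For *NRPB4* (1.57, 0.741 to 3.34) and *NRPB2* (1.44, 0.886 to 2.33) the interval included 1. In WT, promoter ChIP over input was below that of the rest of the gene for all 5 genes, from 0.171 times for *NRPB4* to 0.617 times for *NRPB2*, with no interval reaching 1. In *hyl1-2* the same quotient was 0.269 for *NRPB4*, 0.648 for *NRPB5*, 0.865 for *NRPB3*, 0.887 for *NRPB2* and 1.88 (1.44 to 2.46) for *NRPB1*. *NRPB1* in *hyl1-2* was thus the 1 case of RNA Pol II denser in the promoter than in the gene. A lower promoter was general. The medians of all protein-coding genes were 0.521 in promoters and 1.08 in the rest of the gene in WT. In *hyl1-2* they were 0.722 and 1.05.

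In bins of 100 bp, *NRPB1* showed a raised block at its 5′ end in *hyl1-2* and a raised middle in WT. ChIP over input in *hyl1-2* was 2.01 or more in every bin from -300 bp to 800 bp around the 5′ end, with its maximum of 2.63 in the first 100 bp, where the WT value was 0.901. The fold change was largest at this end from -300 to -200 bp, at 4.94 (2.70 to 9.05), with 32 ChIP reads in WT and 99 in *hyl1-2* over 37 input reads in each genotype. Reads are longer than a bin and count in each bin they overlap, so neighbouring bins share reads and are not separate observations. The interval was above 1 in every bin from -700 to 1000 bp. Between 3300 and 5300 bp, 11 bins had an interval below 1. At 3500 to 3600 bp, for instance, ChIP over input was 1.80 in WT and 0.914 in *hyl1-2*, a fold change of 0.51 (0.297 to 0.863). Both genotypes had a further maximum at 6000 to 6100 bp, of 2.92 in WT and 2.37 in *hyl1-2*.

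At the 3′ end of *NRPB1* the libraries parted again. In the last 500 bp, WT ChIP held 91 reads and *hyl1-2* ChIP 183, at a fold change of 2.23 (1.55 to 3.21), and in the 500 bp past the end 49 and 160 reads, at 3.72 (2.46 to 5.63). Over all genes, the median fold change was 1.01 in the last 500 bp, with 33.4% above 1.2. Past the end it was 1.21, with 50.5% above 1.2. The fold changes of *NRPB1* were higher than those of 91.3% and 95.3% of genes. WT ChIP over input was only 0.243 past the end, against 0.903 in *hyl1-2*. The first 150 bp of this stretch separate *NRPB1* from *PLDDELTA* (AT4G35790), a phospholipase D gene on the same strand that holds the rest of it, and the promoter of *PLDDELTA* had a fold change of 4.70 (2.65 to 8.35). Termination of one gene and initiation of the next cannot be told apart in it.

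**Figure D4:**
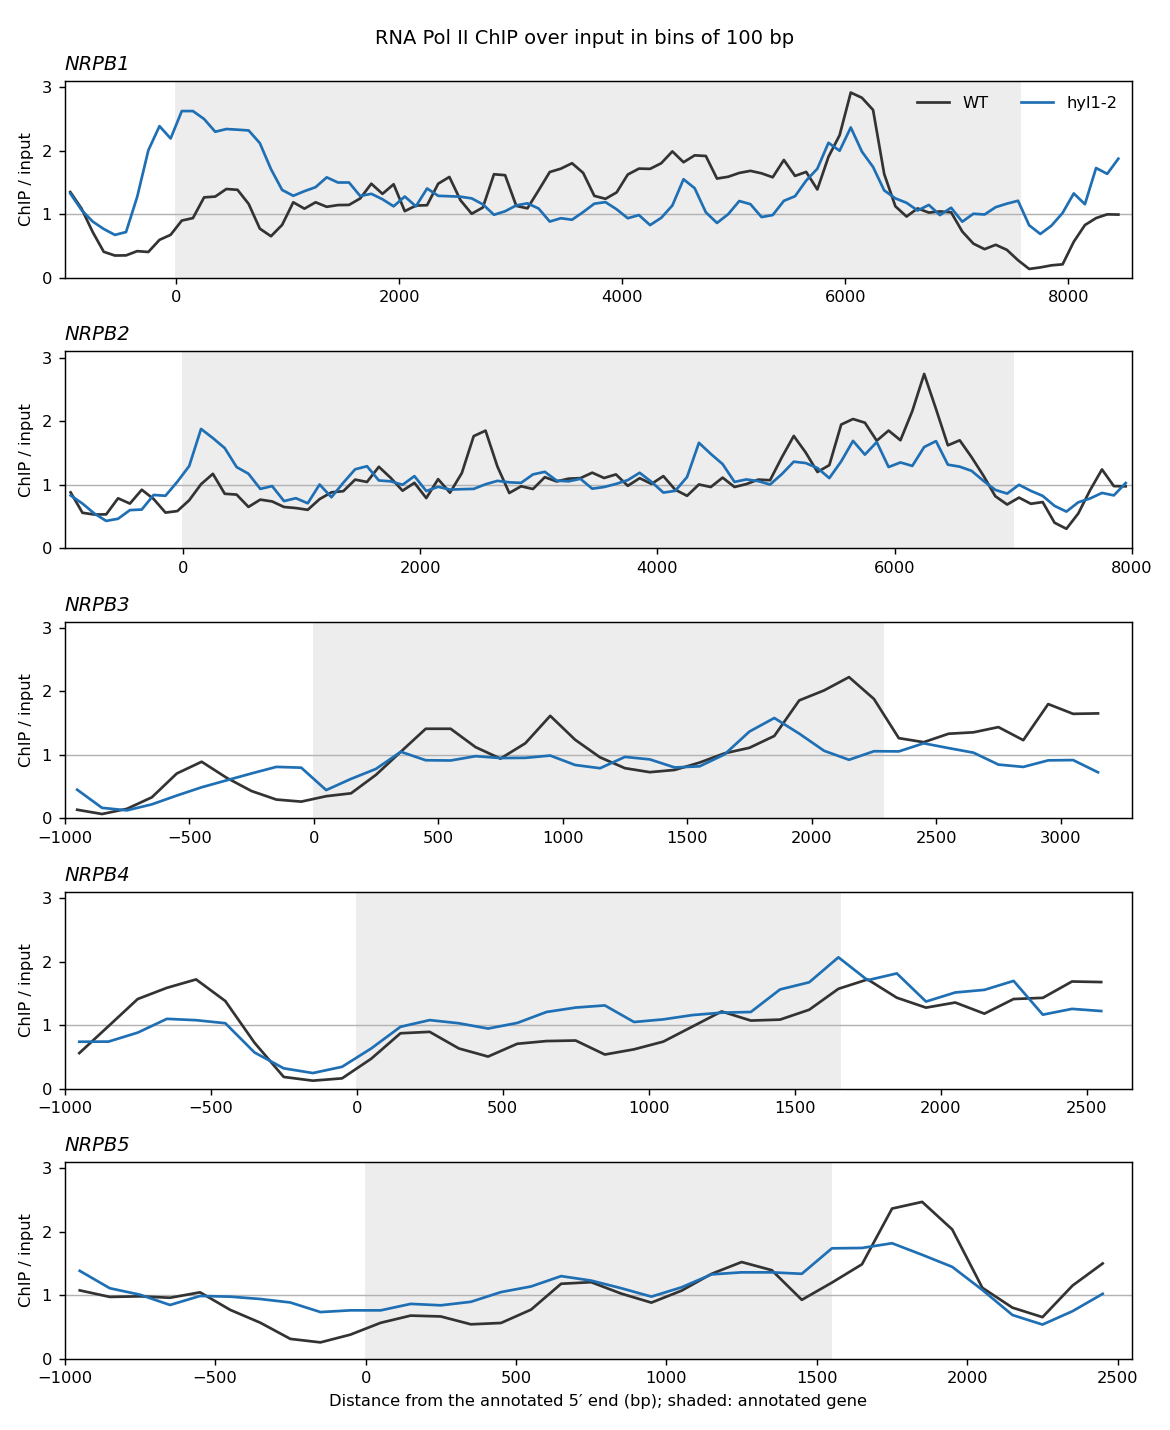
RNA Pol II ChIP over input in bins of 100 bp from 1000 bp before the annotated 5′ end to 1000 bp past the 3′ end of each gene (shaded), for WT (black) and *hyl1-2* (blue). In *NRPB1* the *hyl1-2* line stays at or above 2.01 from -300 to 800 bp while WT stays at or below 1.40, and in *NRPB4* both lines drop before the gene, to 0.124 in WT and 0.244 in *hyl1-2*.

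The other genes had no such block at the 5′ end. *NRPB2* in *hyl1-2* had its maximum of 1.88 at 100 to 200 bp, where WT was at 1.01, and WT had its maximum of 2.74 near the other end, at 6200 to 6300 bp, where *hyl1-2* was at 1.59. Of its 90 bins, 6 had an interval above 1 and 4 below. *NRPB3* had 3 bins above and 9 below of 42, the WT maximum of 2.22 lying at 2100 to 2200 bp, where *hyl1-2* was at 0.922. *NRPB4* was higher in *hyl1-2* in 15 of 16 bins of the gene, most at 800 to 900 bp (2.44, 1.45 to 4.12). *NRPB5* had its largest fold change at -200 to -100 bp (2.85, 1.49 to 5.44), and 4 of its 35 bins had an interval above 1 and 0 below. Since neighbouring bins share reads, these counts of bins are descriptive, and no share over the bins of all genes is given beside them.

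When each gene was divided into 3 equal parts, with every read counted once at its midpoint, the 5′ part of *NRPB1* had a fold change of 1.46 (1.24 to 1.72), the middle part 0.71 (0.603 to 0.837) and the 3′ part 0.94 (0.795 to 1.11). The value near 1 for the whole of *NRPB1* thus combined stretches on both sides of 1. *NRPB2* gave 1.24 (1.04 to 1.48), 0.98 (0.822 to 1.17) and 0.82 (0.693 to 0.972). The quotient of the 5′ over the 3′ part was 1.55 for *NRPB1* (1.23 to 1.96) and 1.51 for *NRPB2* (1.18 to 1.93), while for *NRPB3* (1.27), *NRPB4* (1.34) and *NRPB5* (1.34) it was above 1 with intervals that included 1. In all genes the medians of the 3 parts were 1.03, 0.907 and 0.946. Within WT, the 5′ part of *NRPB2*, *NRPB3*, *NRPB4* and *NRPB5* had 0.475 to 0.610 times the ChIP over input of the 3′ part, and for *NRPB1* it was 0.847 (0.712 to 1.01). The WT medians of all genes also differed in this direction, at 0.906 in the 5′ part and 1.12 in the 3′ part.

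GC content and ChIP over input were positively correlated along the genes, but only weakly in *NRPB5* (Pearson's r 0.20 in WT and 0.21 in *hyl1-2*, 35 bins). Across the bins, Pearson's r between GC content and log2 ChIP over input was 0.62 in WT and 0.40 in *hyl1-2* for *NRPB1* (95 bins), and between 0.20 and 0.58 in both genotypes for the others. Neighbouring bins share reads, and the part of GC content in the levels was not tested. After a correction for GC content in steps of 2 percentage points, the promoter fold change was 3.65 for *NRPB1*, 1.63 for *NRPB2*, 2.68 for *NRPB3*, 2.06 for *NRPB4* and 2.38 for *NRPB5*.

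The genes of the remaining RNA Pol II subunits were set beside these 5. Of 12 such genes, 8 promoters were above 1.2 and 1 below 0.8, with a median fold change of 1.46, and 4 had an interval above 1. Against 58.6%, 11.7% and 30.8% of all promoters, these counts were near the background. *NRPB7*, whose product pairs with NRPB4, had 14 ChIP reads in WT and 32 in *hyl1-2*, a fold change of 2.93 (1.37 to 6.29), and its WT level of 0.178 was next to the 0.145 of *NRPB4*. *NRPB11*, the partner of NRPB3, stood at 1.61 (0.929 to 2.78). The 1 promoter below 0.8 was that of *NRPB6A* (0.78, 0.477 to 1.28). Over whole genes, 3 of the 12 were above 1.2 and 0 below, against 25.9% and 21.4% of all genes, with a median of 1.11. These were *NRPB12* (1.65, 1.34 to 2.04), *NRPB10* (1.62, 1.34 to 1.97) and *NRPB8A* (1.31, 1.07 to 1.61). Their paralogs were not above 1.2, with *NRPB12L* at 0.81, *NRPB10L* at 0.92 and *NRPB8B* at 1.10.

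Among 11 genes for subunits of RNA Pol I, III, IV and V, 7 promoters were above 1.2 and 0 below, against 58.6% and 11.7% of all promoters, at a median of 1.62. *NRPE5*, a gene of the fifth subunit of RNA Pol V, had the highest, 3.1 (2.06 to 4.66), with 96 ChIP reads in WT and 200 in *hyl1-2*. Over whole genes, 2 were above 1.2 and 5 below 0.8, against 25.9% and 21.4% of all genes, with a median of 0.835. The 2 were *NRPE5* (1.48) and *NRPA2* (1.40), for the second subunit of RNA Pol I, both with intervals above 1. The 5 were *NRPE1* (0.67, 0.611 to 0.725), *NRPD1* (0.76), *NRPD2* (0.74), *NRPD4* (0.74) and *NRPE3B* (0.73), which belong to RNA Pol IV or V as *NRPE5* and *NRPE7* (1.12, 0.911 to 1.38) do, so genes of these polymerases lay on both sides. *NRPE3B*, the near copy of *NRPB3*, had 1.35 in WT and 0.991 in *hyl1-2*, whereas *NRPB3* had 0.973 and 0.861. The difference between these lists was not tested.

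**Figure D5:**
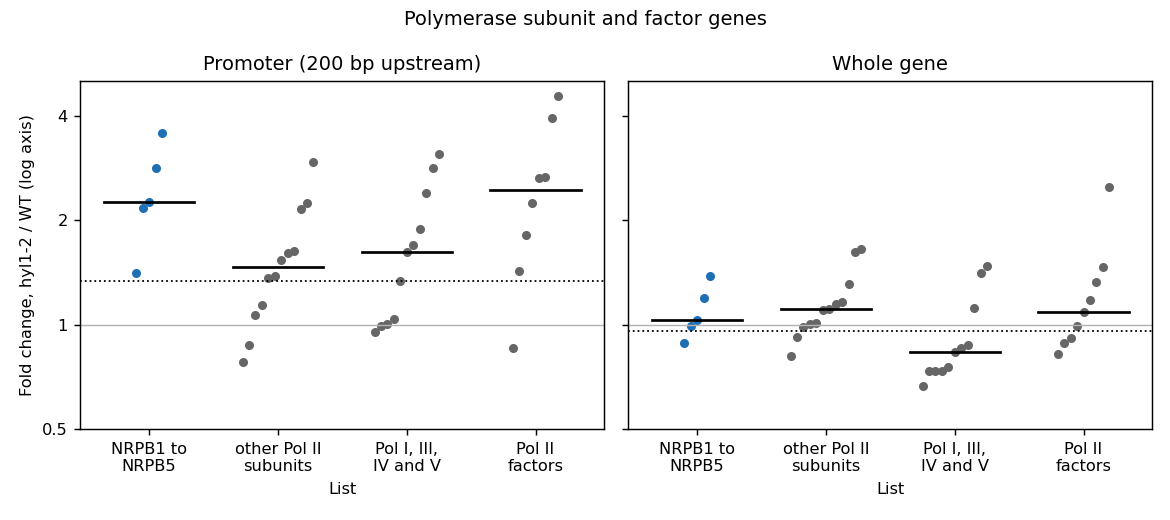
Fold change of ChIP over input, *hyl1-2* over WT (log axis), in the promoter (left) and over the whole gene (right), with a point for each gene, a bar for the median of each list and a dotted line for the median of protein-coding genes. Promoter medians are 2.25 for *NRPB1* to *NRPB5*, 1.46 for the other RNA Pol II subunits, 1.62 for RNA Pol I, III, IV and V and 2.44 for RNA Pol II factors, and the whole-gene medians are 1.03, 1.11, 0.835 and 1.09.

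Of 9 genes for initiation and elongation factors of RNA Pol II, 8 promoters had enough reads, with a median fold change of 2.44, of which 7 exceeded 1.2 and 0 were under 0.8, against 58.6% and 11.7% of all promoters. *TBP1*, a TATA-binding protein gene, had a promoter fold change of 4.57 (2.70 to 7.74) with 37 ChIP reads in WT and 88 in *hyl1-2*. *TFIIB1*, which encodes the factor that links TATA-binding protein to RNA Pol II, had 3.93 (2.51 to 6.17) and was also the highest over the whole gene, at 2.50 (2.14 to 2.91). The promoter of *CPL1*, a phosphatase that acts on the CTD, had 3 WT ChIP reads and was not counted. *SPT5-2*, of an elongation factor, was at 0.85 (0.509 to 1.44) in the promoter. Over whole genes, 3 of the 9 were above 1.2 and 0 below 0.8, against 25.9% and 21.4% of all genes, with a median of 1.09. The interval was above 1 for 4 of them and below 1 for 2, against 25.2% and 27.9% of all genes. The 2 were *SPT6L* (0.82, 0.747 to 0.903) and *SPT5-2* (0.89, 0.797 to 0.991).

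For each of the 5 genes, the protein-coding gene with the most similar pattern was sought over 4 values, the log2 ChIP over input of promoter and whole gene in both genotypes, among genes of similar length. *NRPB1* lay farthest from its match. Its nearest of 640 genes was AT4G01860, a WD-40 repeat gene, at a distance of 0.385, with promoter values of 0.617 in WT and 1.89 in *hyl1-2*. The distances for the others were 0.102 for *NRPB2* (*AGY1*, 847 genes), 0.103 for *NRPB3* (AT1G75560, a zinc knuckle gene, 7907 genes), 0.113 for *NRPB4* (*AGP18*, 6550 genes) and 0.123 for *NRPB5* (AT4G00585, 5980 genes).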

How the data were processed

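Total RNA Pol II ChIP-seq of leaves was analysed in 4 libraries, 1 input and 1 ChIP of each genotype. According to the methods, reads were trimmed, mapped by Bowtie (−M1 −n2) on TAIR10, cleared of duplicates in SAMtools and extended to the fragment length. Bedtools is also named in the submitters' processing notes. The deposited files hold the start, end and strand of each extended read and a score, which is the mapping quality that the authors deposited with it. They hold no counts and no normalized values. Input intervals are 175 bp long and ChIP intervals 200 bp, 125 bp having been added to the aligned part towards higher coordinates on both strands. Counts of reads overlapping a 200 bp window are therefore slightly favoured in ChIP over input, equally in both genotypes.

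Reads were counted per window where they overlapped it by at least 1 bp, in Python 3.11.15 with NumPy 2.4.6, pandas 2.3.3 and PyArrow 21.0.0, and figures were drawn with Matplotlib 3.10.9. Gene models were those of the TAIR10.1 reference, whose nuclear chromosomes end where the last reads end. Of the 27444 nuclear protein-coding genes, those with 10 or more reads in the window in each library were tested. These were 26437 promoters and 27441 whole genes. The intervals are on the log scale at 95%, and no p-value was computed, since each condition has 1 library. Medians or shares over all genes are given beside counts of genes in place of a test.

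The genes, lists, windows and thresholds were chosen with earlier results of these data known. Named genes were the 5 subunit genes, the genes of the 3 lists, *HYL1*, marker genes, genes that overlap or adjoin one of the 5, and the nearest gene by the 4 values. The division into 3 equal parts, the adjoining genes that do not overlap a promoter and the single bins named were chosen after the values were seen. The alternatives comprised totals of nuclear reads, scaling on 200 bp intergenic windows at least 1000 bp from a gene, leaving out reads of mapping quality 0, counting by midpoint, extension along each read's own strand, a correction for positions already taken, a window from 300 to 100 bp upstream, no division by input, a correction for GC content, minimums of 50 reads and 1 read, and thresholds of 1.5 and its inverse. The counting was tested on simulated data. A planned comparison of the subunits' proteins was not made here. The promoter sequence of *NRPB3* is not reported here.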

Additional observations from a re-analysis of the deposited data

How the results depend on the processing

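No paired analysis was possible because each genotype has 1 input and 1 ChIP library. The promoter fold changes stayed above 1 in each of 9 alternatives, at 3.18 to 5.23 for *NRPB1*, 1.15 to 2.14 for *NRPB2*, 1.62 to 2.86 for *NRPB3*, 1.63 to 2.66 for *NRPB4* and 2.01 to 3.15 for *NRPB5*. The interval was above 1 in all 9 for *NRPB1* and *NRPB5*, in 8 for *NRPB3*, in 3 for *NRPB4* and in 2 for *NRPB2*. Extension of reads along their own strand gave 4.32 for *NRPB1* and 2.02 for *NRPB3*, and the correction for positions already taken gave 5.23 for *NRPB1*. At a threshold of 1.5, 4 of the 5 promoters were higher, against 41.4% of all promoters, and with intergenic scaling 49.4% of all promoters were above 1.2.

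Whole-gene values depended on scaling. Scaling on intergenic windows multiplied every fold change by 0.892, which moved *NRPB1* to 0.921 and *NRPB2* to 0.882 (interval below 1), put 1 gene, *NRPB3*, below 0.8 at 0.789, and set the median ChIP over input of the 5 genes at 1.96 in WT and 1.87 in *hyl1-2*, against 0.973 and 1.04 with total reads. By that scaling the median log2 fold change of all genes went from 0.42 to 0.25 in promoters and from -0.06 to -0.23 over whole genes. With nuclear reads as the total (1.21) or without division by input (1.28), *NRPB5* also passed 1.2 over the whole gene. The share of all genes was not counted in these settings. In the main setting, 0 of the 5 whole genes were above a threshold of 1.5, against 14.6% of all genes. The share of all genes lower moved to 18.7% in promoters and 40.0% over whole genes with intergenic scaling, and at 1.5 and its inverse to 4.23% and 3.45%, with 14.6% of whole genes higher. The cause of these shifts was not tested. With 17 reads in the WT ChIP promoter of *NRPB4*, depth limits that value most.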

Other observations

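The genes that adjoin the 5 subunit genes were read in the same way. The divergent gene upstream of *NRPB1*, AT4G35810 of the 2-oxoglutarate-dependent oxygenase family, starts 626 bp from it, and its promoter had 54 ChIP reads in WT and 59 in *hyl1-2*, a fold change of 1.97 (95% counting interval 1.19 to 3.24). Over its whole length the fold change was 0.83 (0.692 to 0.991). Downstream, *PLDDELTA* had 24 and 92 promoter reads in the ChIP libraries and a whole-gene fold change of 1.3 (1.16 to 1.47).

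Next to *NRPB5*, the paralogous mitochondrial RNA helicase genes *PMH1* and *PMH2* lie on either side. The promoter of *PMH2*, which faces *NRPB5*, had 39 ChIP reads in WT and 75 in *hyl1-2*. Its window shares the 158 bp between the genes with the promoter window of *NRPB5*, so most of these reads were counted for both. The promoter of *PMH1* had 85 and 102 reads and a fold change of 1.02 (0.631 to 1.66). Over the whole genes, *PMH1* was at 0.84 (0.723 to 0.974) and *PMH2* at 0.91 (0.784 to 1.06).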
